A study of Mus musculus with 6 samples.

Results

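The genes of cholesterol and fatty acid synthesis were followed in splenic germinal centre B cells of mice that carry a Uchl1 transgene on top of deregulated BCL6. The list held 32 genes given by name, and a gene was measured where at least 1 probe set of the array is annotated to that gene alone, read by the brightest such probe set on average. This gave 31 measured genes among 18193 genes tested. They comprised 17 enzymes of sterol synthesis, 6 regulators of the SREBP pathway and its sterol carrier, and 8 genes of fatty acid synthesis and desaturation. Acat2, the cytosolic thiolase at the head of the sterol pathway, had no such probe set and was not analysed here.

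All 6 mice had been immunised with sheep red blood cells and carried ImHABCL6, in which a promoter of the immunoglobulin heavy-chain locus drives epitope-tagged BCL6, the repressor that defines germinal centre B cells. The 3 ImHABCL6 mice are called controls. The 3 ImHABCL6/Uchl1 mice also had transgenic Uchl1, which encodes a deubiquitinating enzyme; the labels give neither the promoter of that transgene nor the ages of the mice. Cells were taken with magnetic beads, and total RNA was read on Affymetrix mouse 430 2.0 arrays. Levels are deposited log2 values per probe set, and each difference is the ImHABCL6/Uchl1 mean less the control mean, in log2 units. With 3 arrays a group, the number of arrays limits the precision of each difference, and the smallest p an exact two-sided permutation test can give is 0.1.

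Cholesterol is built from acetyl-CoA through mevalonate, the isoprenoids, squalene and lanosterol. The transcription factors SREBP2 (Srebf2) and SREBP1 (Srebf1) switch on the genes of this route and of fatty acid synthesis. When sterols are low, SCAP escorts SREBPs from the endoplasmic reticulum to the Golgi, where they are cut to their active form, and when sterols are plentiful INSIG proteins hold SCAP back. Dividing lymphocytes draw on both routes for new membrane. NF-Y and Sp1 are the partners with which SREBPs act at many of these promoters.

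Promoter sequences are shown because SREBPs act at the promoters of many of these genes. Whether the motifs bear on the differences between genotypes was not tested. RefSeq promoters of build GRCm38.p6, spanning 250 bases before to 50 bases after the gene's start, were held for 25 of the 32 listed genes. On either strand, the NF-Y box CCAAT was found in 21 of these 25 (84%), against 42% of 14452 tested genes with a promoter in the table. The GC box GGGCGG, bound by Sp1, was also found in 21 of 25 (84%), against 57.3%. The sterol regulatory element core TCACNCCAC was found in 1 of 25 (4%), against 1.46%. The single match lay in Hmgcs1, 137 bases before the start. Only exact matches to this pattern within the held stretch were counted. A promoter without one may thus still hold a variant of the element. None of the 3 motifs contains another, and a match describes the sequence only. A log2 level of 6 on at least 3 arrays was reached by 30 of the 31 measured members and by 9882 of the 18193 genes tested. Motif shares among such brighter genes alone were not computed. The 4 promoters below belong to the genes with the smallest p in the comparison of genotypes among members that were higher with the transgene and had 1 promoter in the table. Capitals mark the 3 motifs on either strand, so that ATTGG is an NF-Y box and CCGCCC a GC box read from the other strand. They lie at chr13:119690101-119690400, plus strand (Hmgcs1), chr1:169969156-169969455, minus strand (Hsd17b7), chr15:82147019-82147318, plus strand (Srebf2) and chr5:4104648-4104947, minus strand (Cyp51).
Hmgcs1: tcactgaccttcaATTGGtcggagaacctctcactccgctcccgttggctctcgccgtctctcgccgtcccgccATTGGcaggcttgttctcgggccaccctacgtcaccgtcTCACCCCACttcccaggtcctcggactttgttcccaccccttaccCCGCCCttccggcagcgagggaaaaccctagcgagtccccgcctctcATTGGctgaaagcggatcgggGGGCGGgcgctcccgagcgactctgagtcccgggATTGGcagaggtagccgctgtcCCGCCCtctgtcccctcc
Hsd17b7: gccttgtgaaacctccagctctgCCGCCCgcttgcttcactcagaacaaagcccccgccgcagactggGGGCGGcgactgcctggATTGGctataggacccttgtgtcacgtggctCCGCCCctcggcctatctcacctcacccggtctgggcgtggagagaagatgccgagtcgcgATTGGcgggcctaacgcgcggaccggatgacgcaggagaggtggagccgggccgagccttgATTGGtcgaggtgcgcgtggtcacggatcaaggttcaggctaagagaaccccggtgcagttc
Srebf2: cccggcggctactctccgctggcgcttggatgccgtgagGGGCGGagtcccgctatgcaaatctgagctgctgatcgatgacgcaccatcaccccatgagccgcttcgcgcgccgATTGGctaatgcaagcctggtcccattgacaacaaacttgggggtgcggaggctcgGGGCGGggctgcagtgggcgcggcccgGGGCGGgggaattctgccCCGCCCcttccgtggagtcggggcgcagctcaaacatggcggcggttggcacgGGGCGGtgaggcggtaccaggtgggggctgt
Cyp51: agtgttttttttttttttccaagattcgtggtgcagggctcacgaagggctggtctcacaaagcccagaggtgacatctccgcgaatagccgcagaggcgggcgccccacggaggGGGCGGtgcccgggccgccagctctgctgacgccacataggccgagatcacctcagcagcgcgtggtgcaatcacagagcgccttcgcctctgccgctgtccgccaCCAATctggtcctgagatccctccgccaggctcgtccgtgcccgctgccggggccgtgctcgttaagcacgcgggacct
Hmgcs1 holds 4 NF-Y boxes and 3 GC boxes beside its sterol regulatory element core, and Hsd17b7 holds 3 of each box. Srebf2 holds 1 NF-Y box among 5 GC boxes, and Cyp51 holds 1 of each.

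Across the arrays as a whole, Uchl1 was read as a check of the labels. Its probe set read 5.01, 4.999 and 5.02 on the 3 control arrays against 5.96, 5.87 and 6.02 with the transgene, without overlap (limma adjusted p = 0.638, exact permutation p = 0.1). The Uchl1 signal was dim, short of a log2 level of 6 on at least 3 arrays. Separation in this direction held for 3.95% of all genes tested. Of the germinal centre and B-cell markers 12 of 14 were measured, and all 12 reached a log2 level of 6 on at least 3 arrays. The T-cell list did so for 3 of 9 measured markers and the macrophage list for 3 of 10. Red-cell markers were also present. All 13 measured erythroid markers reached that level, and all 13 were lower on average with the transgene, so RNA of red-cell precursors was present beside that of B cells. In such bulk RNA, fewer cells of a type and less RNA per cell cannot be told apart.

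Most genes of cholesterol synthesis were higher on average with the Uchl1 transgene, by small amounts, while fatty acid synthesis genes were mixed, and none passed the test. Hmgcs1, which makes the precursor of mevalonate, was 1.53-fold higher, the lanosterol demethylase Cyp51 1.47-fold and SREBP2 itself 1.35-fold. Fads1, the desaturase of long polyunsaturated fatty acids, was 1.42-fold lower. Of the 31 measured genes 25 were higher (80.6%) and 6 lower (19.4%), where 50.6% and 49.4% of all genes tested were. The median log2 difference was 0.25 in the list and 0.0029 over all genes. By role, 15 of 17 sterol enzymes were higher (median 0.26), 5 of 6 regulators (median 0.29) and 5 of 8 fatty acid genes (median 0.09).

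With limma and Benjamini-Hochberg adjustment over all genes, 0 of the 31 genes passed at 0.05, and 0% of all genes did. The smallest adjusted p in the list was 0.945, for Hmgcs1. At an unadjusted limma p of 0.05, 4 of the 31 genes were higher and 1 was lower, where 1.09% and 3.85% of all genes were. On the probe set used, all 3 transgenic arrays lay above all 3 controls for 6 of the 31 genes (19.4%), where this held for 3.95% of all genes. They lay below them for 1 gene, Fads1, where this held for 5.49% of all genes. Except for Acacb, which stayed under a log2 level of 6 on every array, the genes of the list were read above that level on at least 3 arrays. Of the 9882 genes tested that also reached it, 40.2% were higher with the transgene. The list's median depended on single mice. It was 0.08 without control replicate 3 and 0.12 without ImHABCL6/Uchl1 replicate 1, which left 20 genes higher and 11 lower.

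**Figure D1:**
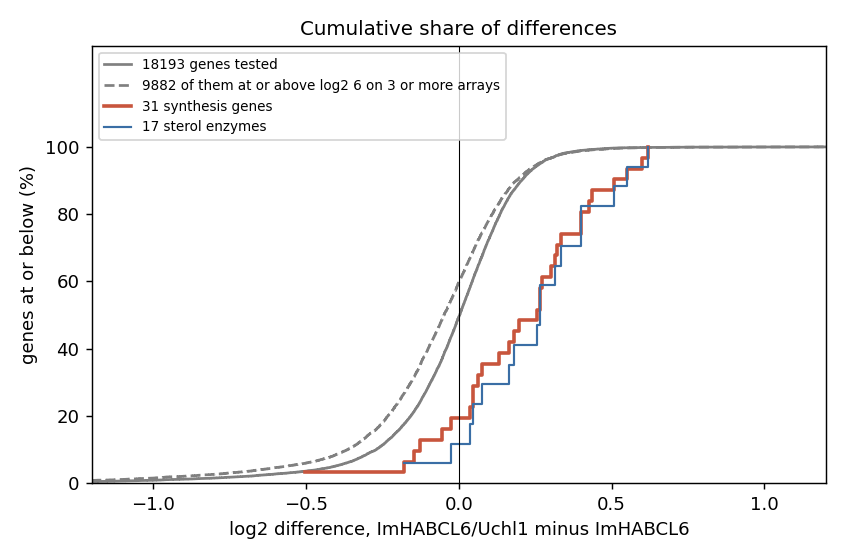
Cumulative share of genes (%) at or below each log2 difference between genotypes, for all 18193 genes tested (solid grey), the 9882 of them that reach log2 6 on 3 or more arrays (dashed grey), the 31 synthesis genes (red) and the 17 sterol enzymes among them (blue). The red curve crosses 0 at 19.4% and the solid grey curve at 49.4%, and tails beyond the axis are not drawn.

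Among the regulators, both SREBP genes read higher with the transgene, and the factors that escort or retain them differed less evenly. Srebf2, the SREBP that drives sterol genes, read 9.90, 9.52 and 9.55 in controls 1 to 3 and 10.12, 9.99 and 10.15 in transgenic replicates 1 to 3. The groups did not overlap, and control replicate 1 came closest to the transgenic arrays. The means were 9.66 ± 0.21 and 10.09 ± 0.09 (SD, n = 3 each), a difference of 0.43 (SE 0.15, limma adjusted p = 0.983). Its other probe set differed by 0.42. Srebf1, which encodes the SREBP isoforms that favour fatty acid genes, read 9.64, 9.29 and 9.32 in the controls and 9.70, 9.74 and 9.62 with the transgene. Control replicate 1 lay between the transgenic arrays, so the groups overlapped by that array alone (difference 0.27, SE 0.14, limma adjusted p = 0.998).

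Insig1, itself a sterol-responsive target that retains SCAP, read 8.93, 8.46 and 8.42 in the controls and 9.48, 8.84 and 8.81 with the transgene. Transgenic replicate 1 was highest and control replicate 1 second, above the other transgenic arrays (difference 0.44, SE 0.23, limma adjusted p = 0.998). Insig2, its less sterol-responsive relative, read 8.52, 8.18 and 7.98 against 8.40, 7.93 and 8.18, with fully mixed groups (difference -0.05, SE 0.19). For Scap, the escort, the values were 8.56, 8.36 and 8.29 against 8.78, 8.0001 and 8.62. Here transgenic replicate 2 was lowest of all 6 arrays and the other transgenic arrays were highest (difference 0.06, SE 0.21). Stard4, a soluble carrier of cholesterol between membranes, read 9.02, 8.998 and 8.96 in the controls and 9.43, 9.28 and 9.17 with the transgene. Its controls lay within 0.1 of each other and below every transgenic array (difference 0.30, SE 0.13, limma adjusted p = 0.998). The other probe sets of Stard4 differed by -0.01 and 0.14 with overlapping groups, so the size and the separation rest on the probe set.

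In the mevalonate arm, Hmgcs1 read 10.62, 10.37 and 10.05 in controls 1 to 3 against 11.22, 10.92 and 10.75 in transgenic replicates 1 to 3. The lowest transgenic array lay above the highest control, although each group spread over more than 0.4. The means were 10.35 ± 0.28 and 10.96 ± 0.23 (SD, n = 3 each), a difference of 0.62 with an SE of 0.19. The other 4 Hmgcs1 probe sets differed by 0.57, 0.56, 0.40 and, for a dim one, 1.02. On all of these but the dim one the groups overlapped. Steps further on differed less. Mvk, mevalonate kinase, was at 0.18 and its groups did not overlap, with 6.78 ± 0.16 in controls and 6.96 ± 0.02 with the transgene (SD, n = 3 each). On the other Mvk probe set, at 0.19, the groups overlapped. Pmvk, the next kinase, differed by 0.05, Mvd, the decarboxylase that makes isopentenyl diphosphate, by 0.26, its isomerase Idi1 by 0.16, and Fdps, which makes farnesyl diphosphate, by 0.32. None of these 4 separated the groups, and their SEs ran from 0.19 to 0.28. The value of Mvd came from a probe set that can bind related transcripts, and its other probe set past the brightness level differed by 0.04.

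At the squalene steps, Sqle alone separated the groups. Fdft1, squalene synthase and the first enzyme committed to sterols, differed by 0.04 (SE 0.14), with control values of 9.57 on all 3 arrays and 9.47, 9.55 and 9.79 with the transgene. Sqle, squalene epoxidase and a rate-limiting step, read 9.02, 8.88 and 8.85 in the controls and 9.68, 9.17 and 9.10 with the transgene. Its groups did not overlap, but transgenic replicate 1 alone stood 0.5 above the other transgenic arrays (difference 0.40, SE 0.18, limma adjusted p = 0.998). Lss, which closes squalene epoxide to lanosterol, differed by 0.33 (SE 0.22) with overlapping groups. Its other probe sets, both dim, differed by 0.36 and 0.58.

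From lanosterol onward, the differences ran from -0.18 to 0.55 over 8 enzymes. Cyp51, the lanosterol demethylase, read 9.16, 8.21 and 8.12 in the controls and 9.19, 8.77 and 9.17 with the transgene. Control replicate 1 reached the level of the transgenic arrays, and the other controls lay over 0.5 below every transgenic array (difference 0.55, SE 0.28, limma adjusted p = 0.998). Its second probe set past the brightness level differed by 0.56. Msmo1, the sterol methyl oxidase, differed by 0.51 (SE 0.29), with control replicate 1 above transgenic replicate 2. Hsd17b7, the ketoreductase of the same demethylation complex, read 7.48, 7.41 and 7.43 against 8.01, 7.80 and 7.70. It separated the groups with tight controls, at 7.44 ± 0.04 and 7.84 ± 0.16 (SD, n = 3 each), a difference of 0.40 (SE 0.13, limma adjusted p = 0.983). That probe set, like those of Fdft1, Lss and Acly, is of a kind that can bind related transcripts. The other 2 Hsd17b7 probe sets past the brightness level differed by 0.23 and 0.32 with overlapping groups, and a dim one by -0.17. Nsdhl, the decarboxylating dehydrogenase that acts between Msmo1 and Hsd17b7, differed by 0.08, the sterol reductase Tm7sf2, which follows Cyp51, by -0.03, the isomerase Ebp by -0.18, the desaturase Sc5d by 0.25 and the final reductase Dhcr7 by 0.26. The groups overlapped for these 5 enzymes, with SEs from 0.14 to 0.20.

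**Figure D2:**
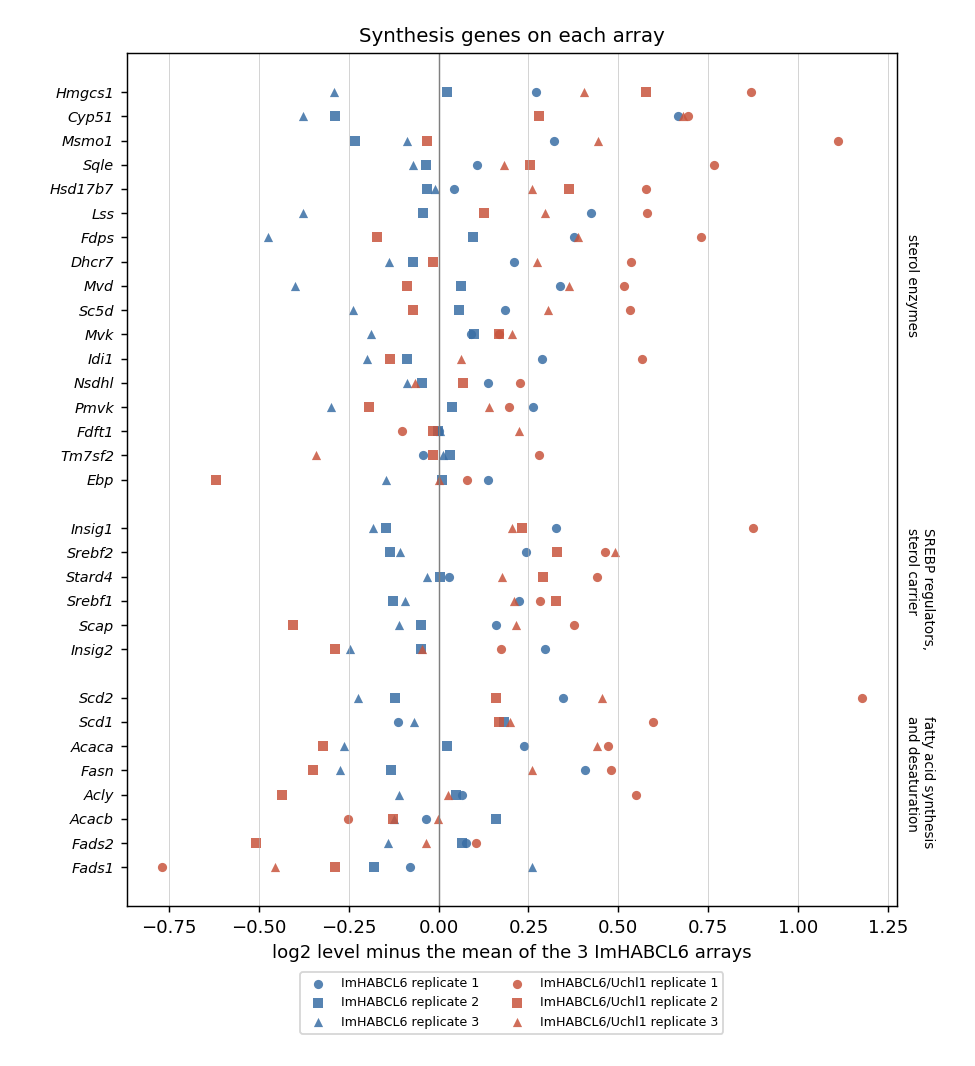
Level of each of the 31 genes on each array, as log2 level minus the mean of the 3 ImHABCL6 arrays, by role and, within a role, by the difference between genotypes. Blue marks controls and red ImHABCL6/Uchl1, and circle, square and triangle are replicates 1, 2 and 3. Red circles lie farthest right in most rows (22 of 31), where that array is highest for 22.6% of all genes tested. Blue triangles lie farthest left in 15 rows, where that array is lowest for 16.3% of all genes tested.

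Fatty acid genes did not lean one way. Acaca, the cytosolic acetyl-CoA carboxylase that commits carbon to fatty acids, read 8.17, 7.96 and 7.67 in the controls and 8.41, 7.61 and 8.38 with the transgene. Fasn, the fatty acid synthase, read 9.11, 8.57 and 8.43 against 9.19, 8.36 and 8.97. In both, transgenic replicate 2 was the lowest of the 6 arrays, and the differences of 0.20 (SE 0.24) and 0.13 (SE 0.26) were within the spread. Acly, which supplies cytosolic acetyl-CoA from citrate, differed by 0.05 (SE 0.24), and its control values lay inside the range of the transgenic ones. Acacb, the mitochondrial carboxylase, was dim and differed by -0.13, and its other probe set, also dim, by 0.29 without overlap of the groups.

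Of the 4 desaturases, Fads1 alone separated the groups on the probe set used. The stearoyl-CoA desaturase Scd2, which makes monounsaturated fatty acids, read 9.82, 9.35 and 9.25 against 10.65, 9.63 and 9.93. Transgenic replicate 1 stood 0.7 above the next array, and control replicate 1 lay within the transgenic range (difference 0.60, SE 0.27, limma adjusted p = 0.998). The other Scd2 probe sets differed by 0.18 and, for a dim one, 0.20, and the mean of all 3 by 0.32, so the size rests on the probe set. Scd1, its relative, read 10.98, 11.28 and 11.03 against 11.69, 11.26 and 11.29, with control replicate 2 between the transgenic arrays (difference 0.32, SE 0.17). Both Scd1 probe sets were higher, by 0.32 and 0.40. Fads1, the delta-5 desaturase of polyunsaturated fatty acids, read 8.05, 7.95 and 8.39 in the controls and 7.36, 7.84 and 7.67 with the transgene. Every transgenic array lay below every control, at 7.62 ± 0.24 against 8.13 ± 0.23 (SD, n = 3 each), a difference of -0.50 (SE 0.18, limma adjusted p = 0.983). The second Fads1 probe set differed by -0.20 with overlapping groups. Fads2, the delta-6 desaturase of the same route, differed by -0.15 (SE 0.18) with overlapping groups, and by 0.034 without ImHABCL6/Uchl1 replicate 2. Its other probe sets, both dim, differed by -0.12 and 0.23.

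The control arrays also differed among themselves in these genes. The control range exceeded the difference between genotypes for 22 of the 31 genes. The share over all genes was not computed, so this count does not set the list apart from other genes. Averaged over the 17 sterol enzymes, each centred on its mean over the 6 arrays, controls 1 to 3 lay at 0.10, -0.15 and -0.32 and transgenic replicates 1 to 3 at 0.37, -0.10 and 0.10. Transgenic replicate 1 was thus highest and control replicate 3 lowest, and transgenic replicate 2 lay among the controls. The regulators followed the same order except that control replicate 1 and transgenic replicate 3, nearly level in both, changed places, at 0.09, -0.20 and -0.25 against 0.31, -0.04 and 0.09. Fatty acid genes lay at 0.08, -0.03 and -0.15 against 0.26, -0.24 and 0.08, with transgenic replicate 2 the lowest. Transgenic replicate 1 held the highest level of 22 of the 31 genes, against 22.6% of all genes tested. Within the controls, replicate 1 was highest for 25 of the 31 genes (80.6%), against 36.5% of all genes.

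The level of red-cell RNA ran against the sterol enzyme average. The mean log2 level of the 13 erythroid markers was 10.63, 11.21 and 11.66 in controls 1 to 3 and 9.02, 11.01 and 10.44 in transgenic replicates 1 to 3, or 11.17 ± 0.52 and 10.15 ± 1.02 (SD, n = 3 each; exact permutation p = 0.2). Ordered by falling erythroid level, the 6 arrays stood in the order of rising sterol enzyme level across and within both genotypes; transgenic replicate 3 and control replicate 1 were level at 0.10 to the second decimal. Fatty acid genes did not follow that order, since transgenic replicate 2 was lowest at an erythroid level below those of controls 2 and 3. Transgenic replicate 1, with the least erythroid signal, also had the highest mean of the 12 germinal centre and B-cell markers, 11.20, where the other arrays lay between 10.70 and 10.78. The 7 neutrophil markers were all lower on average with the transgene, but control replicate 1 stood apart, and 2 of the 7 reached the brightness level. Their mean was 6.49, 5.52 and 5.24 in controls 1 to 3 and 5.45, 5.54 and 5.21 in transgenic replicates 1 to 3 (exact permutation p = 0.5).

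With the erythroid mean as a covariate in the limma fit, 12 of the 31 genes were higher and 19 lower, with a median of -0.05 where all genes had -0.02. The sterol enzymes then had 6 of 17 higher and a median of -0.03, the regulators 4 of 6 and 0.13, and the fatty acid genes 2 of 8 and -0.21. Under that fit Hmgcs1 was at 0.36, Srebf2 at 0.31, Hsd17b7 at 0.28, Srebf1 at 0.21, Stard4 at 0.21, Cyp51 at 0.20 and Sqle at 0.13, while Insig1 was at 0.05 and Scd2 at 0.07. Fads1 was at -0.25. None of the 31 passed there (smallest limma adjusted p 0.314), and a fit with 6 arrays and a covariate that itself differs between genotypes leaves 3 residual degrees of freedom.

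**Figure D3:**
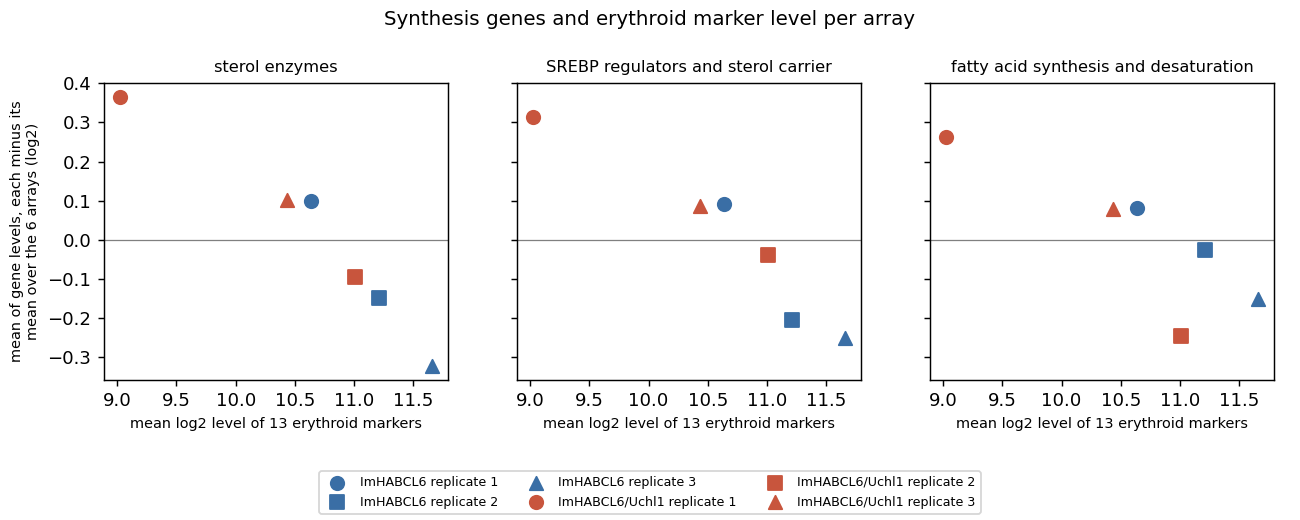
Mean level of each role's genes on each array (vertical axis, log2, each gene minus its mean over the 6 arrays) against the mean log2 level of 13 erythroid markers (horizontal axis). Points are single arrays, blue for controls and red for ImHABCL6/Uchl1; the sterol enzymes fall from 0.37 at an erythroid level of 9.02 to -0.32 at 11.66.

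**Figure D4:**
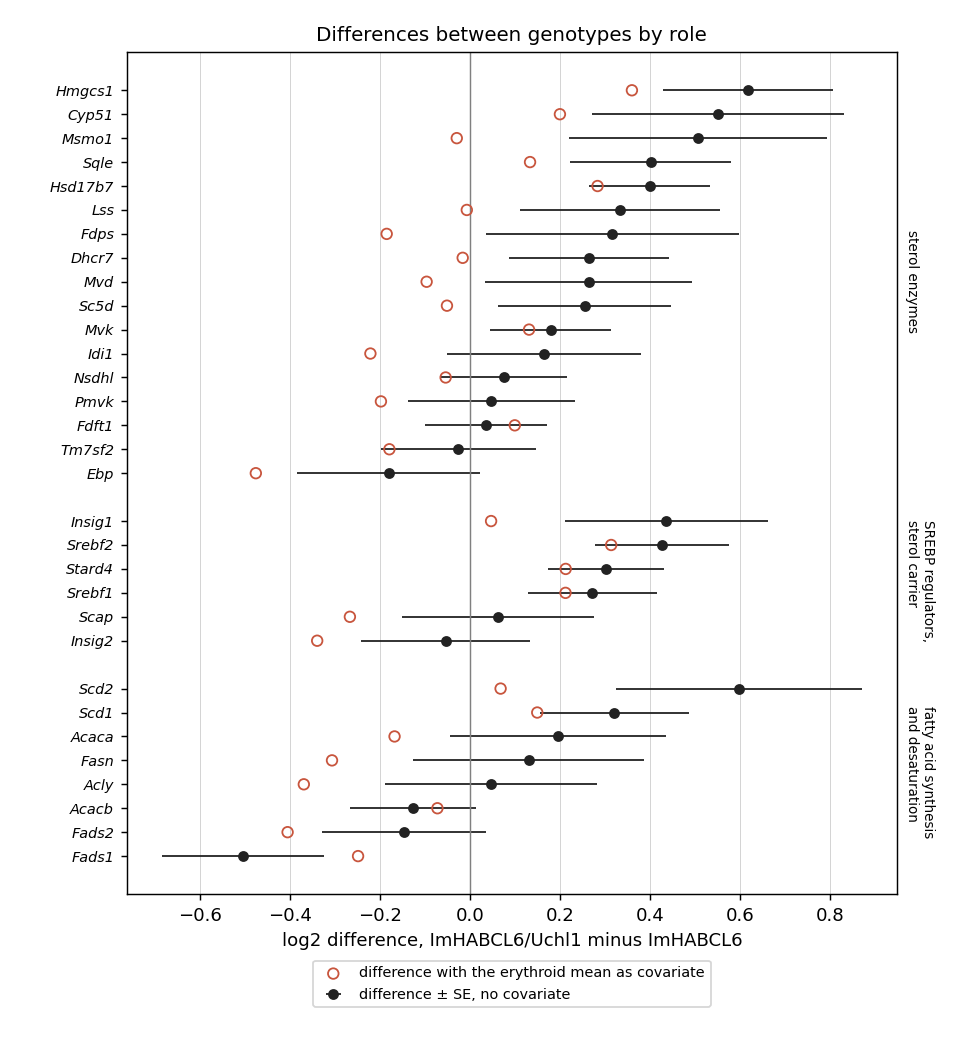
Log2 difference between genotypes of each gene with its standard error (black points and bars, limma, 3 arrays a group) and the difference with the erythroid mean as a covariate (open red circles, no error drawn). Black points lie above 0 for 25 of 31 genes and red circles for 12 of 31.

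Genes around these routes leaned in mixed directions. For comparison, 50.6% of all genes tested were higher, and 40.2% of those that reached the brightness level, as most genes of these lists did. Of the genes that process SREBPs, sense sterols or act with SREBPs at promoters, 3 of 14 measured were higher and 11 lower (median -0.05). Nfya, a subunit of NF-Y, read 8.64, 8.68 and 8.80 in the controls and 8.50, 8.12 and 8.26 with the transgene, without overlap (difference -0.42, SE 0.14, limma adjusted p = 0.983). Rnf139, an endoplasmic reticulum ubiquitin ligase that acts on sterol regulation, was at -0.43, and Erlin2, a membrane protein of sterol-regulated protein turnover, at -0.17. Among genes of sterol efflux, transport and storage 8 of 12 were higher (median 0.07), with the cholesteryl ester hydrolase Nceh1 at 0.48, the lipoprotein receptor ligase Mylip at -0.20 and the HDL receptor Scarb1 at -0.45. The isoprenoid branch had 3 of 9 higher (median -0.09). There Ggps1, which makes geranylgeranyl diphosphate, was at 0.23 without overlap, the farnesyltransferase subunit Fntb at -0.24 and the ubiquinone enzyme Coq2 at -0.21.

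Of genes that elongate, supply or activate fatty acids 9 of 19 were higher (median -0.02). Acss2, which makes acetyl-CoA from acetate and is a known SREBP target, read 7.42, 6.77 and 6.80 in the controls and 6.47, 5.98 and 6.57 with the transgene. All transgenic values lay below all controls, the opposite direction to Hmgcs1 and Srebf2 (difference -0.66, SE 0.23, limma adjusted p = 0.983). The elongases Elovl6 and Elovl7 were at 0.51 (SE 0.22) and 0.34 (SE 0.13). Elovl7 was dim, and all its transgenic values lay above all controls. Fatty acid oxidation genes were higher in 5 of 15 cases (33.3%, median -0.11), where 40.2% of all genes past the brightness level were. Etfdh, which passes electrons from that route to ubiquinone, was at -0.38, and the acyl-CoA dehydrogenases Acadvl and Acadl were at -0.34 and -0.27. None of these 5 lists had a gene past an adjusted limma p of 0.05.

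Several genes were read by more than 1 probe set, which gives a second reading of the same RNA and not a second sample. The 31 genes had 71 probe sets. Of the 22 genes with several, all probe sets had 1 sign in 14. Of the 21 probe sets that were not used for the gene but reached the brightness level, 19 had the sign of the one used. The exceptions were Acly, at -0.13 against 0.05, and Stard4, at -0.01 against 0.30. Separation of the groups held less often than the sign. On the other probe sets past the brightness level the groups overlapped for Hmgcs1, Hsd17b7, Stard4, Mvk and Fads1. They stayed apart for Srebf2, and Sqle had no other probe set. The second Scd1 probe set separated the groups where the one used did not.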

How the data were processed

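Total RNA of germinal centre B cells from 6 mice was hybridised to Affymetrix mouse 430 2.0 arrays with a 3' in vitro transcription kit, per the labels' protocols. Per the submitters' processing notes, which name RMA and Partek with no version, the deposited values are log2 RMA levels per probe set. RMA compresses differences of dim probe sets, and no detection calls came with the values. The deposited log2 values ran from 2.16 to 15.1.

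Of 45101 probe sets, 34945 had 1 gene symbol in GEO's platform annotation, 932 had several and 9160 had none there; 64 controls were left out. Symbols were updated through Entrez identifiers with RefSeq (GRCm38.p6), which 18145 of 18193 genes matched. The test was limma's moderated one (version 3.58.1, R 4.3.3), two-sided, Benjamini-Hochberg over all genes, with no filter on dim genes; single values also by exact permutation. Figures used matplotlib 3.10.9. In 10 simulated draws of this comparison over 18193 genes, limma called 5.2% of genes given a log2 change of 0.5 and 77% of those given 1. The noise was independent between genes, and each draw also held changes of 2 and 3, which loosen the adjusted cut-off. On average 8.3 unchanged genes were called per draw. In the data no gene passed, so these shares do not say how many such changes this comparison would find. The genes and lists were chosen with earlier results of these data known. All members are named; values on every array are given for the SREBP regulators, for Sqle, Acaca and Fasn, and for the 10 members of smallest p, and the 3 genes of smallest p stand for each other list. Fdft1 was given in full after its values were seen. Of the marker lists, megakaryocyte and platelet, plasma cell, and endothelial and stromal markers had median differences of 0.03, 0.01 and 0.06. The replicate numbers were not taken to pair mice. Alternatives were other probe set choices, normalizations, variance models, array weights, a replicate block, the erythroid mean as a covariate and leaving out each array.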

Additional observations from a re-analysis of the deposited data

How the results depend on the processing

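No alternative put any gene of the list, or any gene at all, past an adjusted limma p of 0.05; the smallest in the list was 0.159, with array weights. Other probe set choices, the filter on dim genes, normalizations, variance models and array weights left 23 to 26 genes higher and medians of 0.15 to 0.28. The erythroid mean as a covariate gave 12 higher, 19 lower and a median of -0.051. Leaving out 1 array gave 20 to 28 higher, 3 to 11 lower and medians of 0.08 to 0.37. Of the 31 genes 12 kept 1 direction under every alternative that gave them a value, 11 higher and Fads1 lower; for Srebf1 these were 15 of the 16, since it has no probe set without a suffix. The share of all genes that were higher was 40.2% without dim genes.

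Other genes turned. With the erythroid covariate these were Pmvk (-0.20), Mvd (-0.10), Idi1 (-0.22), Fdps (-0.18), Lss (-0.0069), Msmo1 (-0.029), Nsdhl (-0.054), Sc5d (-0.051), Dhcr7 (-0.016), Scap (-0.27), Acly (-0.37), Acaca (-0.17) and Fasn (-0.31). The mean of all probe sets turned Fdft1 (-0.0031) and Acacb (0.082), array weights Nsdhl (-0.0042) and quantile normalization Insig2 (0.013). Leaving out 1 array turned 10 genes of small difference: Pmvk ranged from -0.10 to 0.18, Idi1 from -0.037 to 0.31, Fdft1 from -0.059 to 0.10, Tm7sf2 from -0.18 to 0.13, Ebp from -0.31 to 0.040, Scap from -0.094 to 0.30, Insig2 from -0.18 to 0.093, Acly from -0.21 to 0.29, Fasn from -0.045 to 0.37 and Fads2 from -0.27 to 0.034. The cause was not tested.

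Same-numbered arrays did not deviate together in every pair (correlations of their deviations 0.43, 0.19 and -0.26 over all genes). Control replicate 3 correlated best with transgenic replicate 2. The labels do not state a pairing, and deviations within 3 arrays a group cannot settle whether the numbers pair mice. With the replicate block 25 genes were higher, 6 lower and 0 passed.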
